A study of Mus musculus with 25 samples.

Results

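The nuclear genes for complexes III and IV of the respiratory chain and for ATP synthase were followed through 3 RNA-seq experiments on neuronal nuclei of the mouse hippocampus. They were taken by name from the gene column of the tables: every symbol that begins with Uqcr, Cox4 to Cox8 or Atp5, together with Cyc1, Cycs, Usmg5, Atpif1 and 2010107E04Rik. This gave 48 of the 24411 genes in each table. Of these, 9 belong to complex III, 17 to complex IV and 17 to ATP synthase. The other 5 are Cycs (cytochrome c), Atpif1 (the inhibitor of ATP synthase), Cox7a2l (a relative of the complex IV subunit Cox7a2) and 2 name matches that are not subunits, Atp5s and Atp5sl.

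Nuclei positive for the neuronal protein NeuN were sorted from hippocampi of male C57BL/6 mice, and each experiment had its own table of 2 groups. The aging experiment compared 3 young libraries (mice of 3 months) with 2 aged libraries (18 months). In the overexpression experiment, virus was injected into both hippocampi of young mice of 3 months. It encoded GFP in 5 control libraries and Ftl1 in 7, in each case under the synapsin-1 promoter, which is active in neurons. In the knockdown experiment, aged mice of 18 months received virus encoding an shRNA against luciferase in 4 control libraries or against Ftl1 in 4. The study calls the virus lentivirus in its account of the overexpression and adeno-associated virus in its injection protocol. Ftl1 encodes the ferritin light chain, which stores iron together with the heavy chain. All mice of the last 2 experiments therefore carried virus, controls included, and nuclei were sorted on NeuN rather than on transduction.

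Complex III passes electrons from ubiquinol to cytochrome c, which carries them to complex IV, where oxygen is reduced to water. Both complexes pump protons across the inner mitochondrial membrane, and ATP synthase lets them flow back through its ring of c subunits to turn the catalytic head that makes ATP. Neurons draw most of their ATP from this chain, and nearly all its small accessory subunits, like the catalytic head of ATP synthase, are encoded in the nucleus, whereas a few core subunits are encoded in mitochondrial DNA and were not analysed here (0 of 6 had a row in the tables).

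The RNA of the targeted gene did not follow the labels of the overexpression and knockdown experiments. FTL1 protein, which the study measured by western blot, was not analysed here. Ftl1 stood at 1685, 1925 and 2141 normalized counts in the young libraries against 4247 and 4272 in the aged ones. In the overexpression table it stood at 7315, 4580, 28309.5, 7415 and 9953 in the controls (libraries 9901, 9904, 9905, 9925 and 9926), and it ranged from 4737 to 7663 (median 5171) across the 7 libraries labelled Ftl1 OE, so it was not higher in the latter (log2 fold change -0.67, limma adjusted p = 0.681). In the knockdown table it stood at 49.1, 45.6, 56.2 and 24.2 in the controls and at 117, 106, 109 and 139.6 in the libraries labelled Ftl1 KD (log2 fold change 1.47, limma adjusted p = 2.23e-04), the opposite of the label. The groups are therefore called the libraries labelled Ftl1 OE and Ftl1 KD throughout. Depth was 7969282 to 9537872 reads a library in aging, 9943996 to 17034325 in overexpression and only 48902 to 358560 in knockdown. The knockdown controls had 68092 to 358560 reads and the libraries labelled Ftl1 KD 48902 to 97104. The neuronal markers had the highest sum of the cell type lists in each table, over 8 genes against 5 or fewer in the other lists. In overexpression the 5 oligodendrocyte markers were high as well, with sums of 18256 to 38820 beside 42668 to 69544 for the neuronal ones. The study counts the aging libraries as separate mice, and the labels do not say whether each library of the other experiments came from a single mouse, so p-values there measure the spread between these libraries, which may be technical. In sorted nuclei measured in bulk, fewer cells of a type and less RNA per cell cannot be told apart.

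Per kilobase of transcript, Atp5b, Cox4i1 and Cox8a were among the 5 most abundant members in each of the 3 control groups. In the young libraries Uqcrc1, a core protein of complex III, led with 2872 ± 754 normalized counts per kilobase (SD, n = 3), followed by Atp5b, the catalytic β subunit of ATP synthase (2817 ± 903), the small complex III subunit Uqcr11 (1873 ± 338), Cox4i1 (1797 ± 372) and Cox8a (1673 ± 370.3), both of complex IV. The means of Uqcrc1 and Atp5b were above the other 3 by more than their SD, and the other 3 lay within each other's spread. This order depended on the length used. Per kilobase of coding sequence Uqcr11 (4961 ± 895) and Cox8a (4445 ± 984) stood above Atp5b (3400 ± 1090) and Uqcrc1 (3297 ± 866). In the overexpression controls Atp5b led with 19657 ± 7807 per kilobase of transcript (SD, n = 5), before Cox8a (19368 ± 7921), Cox4i1 (18181 ± 9665) and Uqcr11 (15420 ± 6829), and the 4 did not differ beyond their spread. By coding length Cox8a (51460 ± 21046) led there, and Atp5b stood at 23732 ± 9425. In the knockdown controls Cox8a (66.2 ± 17.9), Atp5b (60.7 ± 9.22) and Cox4i1 (57.7 ± 17.6) led (SD, n = 4), again within each other's spread. Each table was normalized separately, so these levels are not compared between tables.

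The promoters of these genes are known as meeting points of the transcription factors NRF1, GABPA (the ETS factor also called NRF2) and YY1. RefSeq promoters (250 bases before to 50 after the annotated start, build GRCm38.p6) were found for 37 of the 48 members, 41 promoters in all. They were searched on both strands for the letters GCGCANGCG (NRF1), CCGGAAGT (GABPA) and AAGATGGCG (YY1), and none of these words contains another. The NRF1 letters occurred in 12 of the 41 promoters (29.3%), against 6.25% of all 32851 promoters of that length, the GABPA letters in 4 (9.76%, against 3.89%) and the YY1 letters in 4 (9.76%, against 1.40%). The 4 with YY1 letters belong to 3 members, since 2 overlapping promoters of Atp5sl, which is not a subunit, share the same match. Any of the 3 occurred in 18 promoters (43.9%, against 10.6%) of 17 members. Windows of 30 bases, each wholly before the start, are shown for 6 members described below, chosen to give each set of letters in its setting, with the matching letters in capitals. They are written 5′ to 3′ on the strand of the gene, here always the minus strand.
Atp5k, NRF1, chr5:108434430-108434459: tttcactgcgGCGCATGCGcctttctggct
Atp5g2, NRF1, chr15:102671070-102671099: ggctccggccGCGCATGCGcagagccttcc
Cox6a1, NRF1, chr5:115349056-115349085: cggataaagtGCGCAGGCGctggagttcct
Cycs, NRF1 (opposite strand), chr6:50566611-50566640: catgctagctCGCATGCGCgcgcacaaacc
Uqcr11, GABPA, chr10:80406869-80406898: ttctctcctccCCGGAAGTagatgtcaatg
Atp5j, YY1, chr16:84835045-84835074: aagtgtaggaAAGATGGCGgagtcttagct
A match describes letters and is not a site of binding. One or more was found in 10 of the 24 small subunits with a promoter (proteins under 150 residues, 41.7%) and in 4 of the 8 large ones (50%). Members without a promoter in the table were 2010107E04Rik, Uqcrc2, Uqcrb, Uqcrq, Cyc1, Cox4i1, Cox4i2, Cox6a2, Cox6c, Cox8c and Atp5a1.

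In aging, no member passed the test. Of the 48 members, 42 had a mean of at least 10 normalized counts and were tested, and 0 of them passed (limma, adjusted p of at most 0.05 and a log2 fold change of at least 0.5 in size), as did 0% of all 13712 genes. At an unadjusted p under 0.05, 0 members passed against 7.94% of all genes. edgeR and DESeq2 on the recovered reads called 0 members too, against 0% and 1.01% of all genes. The values nevertheless leaned one way: 31 of 42 members (73.8%) had a log2 fold change above 0, against 48.3% of all genes, with a median of 0.29 against -0.03 over all genes tested. In 15 members (35.7%) both aged libraries lay above all 3 young ones, against 12.2% of all genes, and in 1, Cox7b (named after its values were seen), both lay below, against 12.5%.

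The leading members of complex III were small subunits. Uqcrh, the hinge protein that links cytochrome c1 to cytochrome c, stood at 289, 319 and 246 normalized counts in the young libraries and at 597 and 389 in the aged ones. Uqcr10, a subunit with a single membrane helix, stood at 407, 410.3 and 528 against 766 and 616. Both aged values lay above the young ones in each gene, but the spread was wide for 5 libraries: the log2 fold changes were 0.76 ± 0.37 (SE) and 0.62 ± 0.32, with adjusted p of 0.642 and 0.648, and the exact permutation p of each was 0.1, the smallest that 3 against 2 libraries allow. The 4 core subunits had log2 fold changes near or below 0. Uqcrc1 stood at 3388, 5837 and 5018 against 4042 and 5145, and Uqcrc2, its partner core protein, at 845, 1274 and 1327 against 1042 and 704. Cyc1 (cytochrome c1) stood at 2261, 2469 and 2480.3 against 2033 and 2606, and Uqcrfs1, the Rieske iron-sulfur protein, at 760.2, 949 and 936 against 822 and 976. In all 4 the groups overlapped, with log2 fold changes from -0.40 (Uqcrc2) to 0.03 (Uqcrfs1). The median over the 5 small subunits was 0.48 and over the 4 core subunits -0.04.

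In complex IV, 10 of the 11 tested subunits had a log2 fold change above 0 (median 0.35), against 48.3% of all genes. Cox5b, which binds zinc, stood at 539, 727 and 910.5 in the young libraries and at 998 and 1093 in the aged ones (log2 fold change 0.56 ± 0.31, adjusted p = 0.659). Cox4i1, the usual isoform of the largest nuclear subunit, stood at 1058, 1616 and 1396 against 1664 and 1613, and Cox6b1, which lies between the paired copies of the complex, at 515, 838 and 765 against 896 and 956. The groups of Cox5b and Cox6b1 did not overlap, whereas for Cox4i1 the lower aged value fell just under the highest young one. Cycs stood at 702, 757 and 754 against 518 and 1021, with the aged libraries on either side of the young ones.

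In ATP synthase the medians of the membrane subunits were above that of the head, with ranges that overlapped, and the difference was not tested. Atp5k (subunit e) stood at 164, 125 and 148 in the young libraries and at 240.2 and 249 in the aged ones, and Atp5l (subunit g) at 301, 358 and 256 against 454 and 455. The groups of both lay apart (log2 fold changes 0.75 ± 0.44 and 0.59 ± 0.35, adjusted p 0.683 and 0.687). All 5 small membrane subunits outside the c ring had values above 0 (median 0.59), as did all 3 genes for the c ring (median 0.47). Atp5b stood at 3673, 7132 and 5384 against 3411 and 5280.5, and Atp5a1, the α subunit, at 3084, 3936 and 3581 against 2731 and 3975. Both overlapped between groups. The median over the 5 subunits of the head was -0.09, with the highest value in Atp5d, the δ subunit (0.37), which lay above the lowest of the membrane subunits. Atpif1 stood at 571, 585 and 585 against 595 and 823, where the aged replicate 2 was barely above the young values.

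The lean in aging rested largely on 1 library. Without aged replicate 3 the median of the members was 0.07, and without aged replicate 2 it was 0.46. The aged libraries also held more ribosomal RNA precursor (Rn45s, 5.91% and 6.42% of reads, against 2.63% to 4.0%), whose part in the result was not tested.

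In the overexpression experiment nearly all members had lower values in the libraries labelled Ftl1 OE, most of all those with the shortest proteins, but none passed the main test. Of 45 members tested, 42 had a log2 fold change below 0 (42.6% of all genes did), with a median of -0.67 against 0.10 over all genes tested. On these libraries limma called 0 members, as it called 0% of all 14099 genes, and edgeR called 0 members and 0% of all genes. At an unadjusted limma p under 0.05, 30 members (66.7%) were lower, against 3.66% of all genes, and 0 were higher, against 3.6%. DESeq2 called 19 members lower (42.2%), against 0.667% of all genes, and 0 higher, against 0.0496%. Fitted on every gene it called 17 lower, against 0.638%. In 5 members (11.1%) the groups did not overlap, against 0.411% of all genes (0 members were higher in this way, against 0.17%): Atp5e, 2010107E04Rik, Atp5j, Atpif1 and Cox7c, the last of them named after its values were seen.

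**Figure D1:**
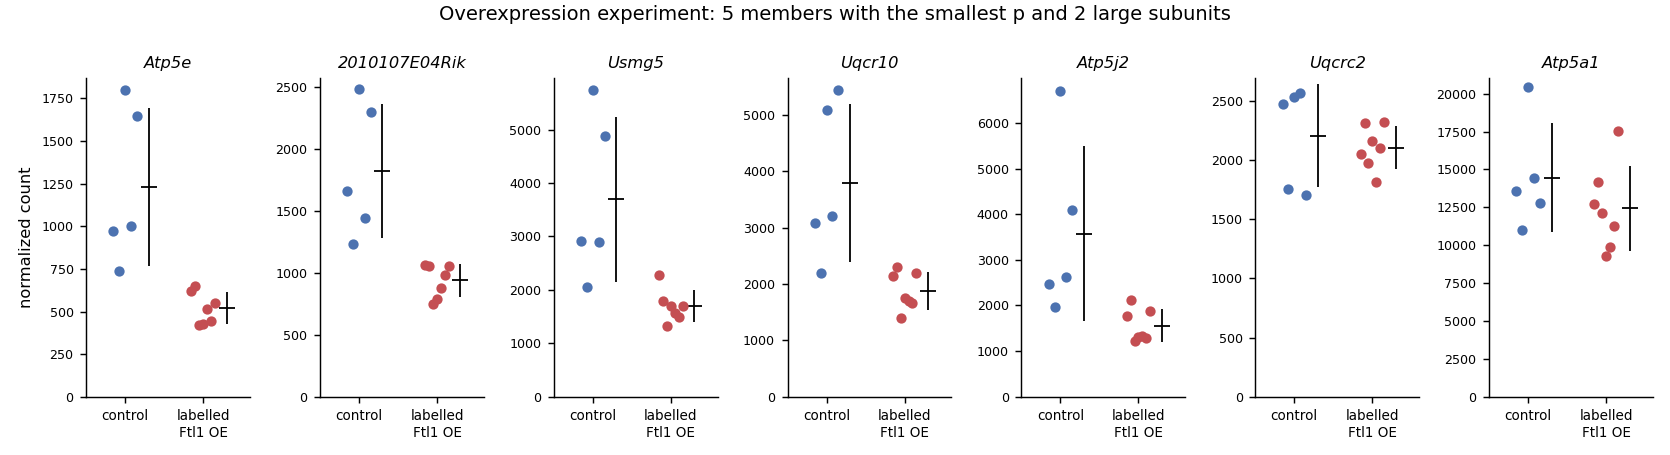
Normalized counts of 7 members in each library of the overexpression experiment, with the 5 controls in blue, the 7 libraries labelled Ftl1 OE in red, and the mean and SD in black. All 7 labelled libraries lie below the controls for Atp5e and 2010107E04Rik, and the groups overlap for the large subunits Uqcrc2 and Atp5a1.

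Atp5e, the ε subunit of the rotor stalk and the shortest member with 52 residues (chr2:174461072-174464105), stood at 970.2, 738, 1799, 1004 and 1649 normalized counts in the controls (in the order of libraries given for Ftl1) and at 422 to 651 (median 515) in the labelled libraries. Every labelled library lay below every control, with a log2 fold change of -1.18 ± 0.25 (limma adjusted p = 0.499, DESeq2 adjusted p = 0.00409). 2010107E04Rik, the small proteolipid of ATP synthase (chr12:111961375-111966977), stood at 1656, 1234, 2480.2, 1438 and 2295 against 748 to 1059 (median 979), again without overlap (-0.92 ± 0.21, limma adjusted p = 0.499). The controls 9905 and 9926 were the 2 highest libraries for both genes.

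Usmg5, which helps ATP synthase to form dimers, stood at 2911, 2052, 5737, 2897 and 4881 in the controls and at 1319 to 2282 (median 1692) in the labelled libraries. Atp5j2 (subunit f) stood at 2464, 1968, 6702, 2629 and 4095 against 1229.6 to 2113 (median 1323). For both, only the lowest control, 9904, lay within the range of the labelled libraries, and the log2 fold changes were -1.04 ± 0.24 and -1.08 ± 0.27. Atpif1, which blocks the enzyme from running backwards, stood at 3189, 2665, 4628, 2783 and 4447 against 1624 to 2570.1 (median 2012), with a log2 fold change of -0.74 ± 0.19, and Atp5j (coupling factor F6, in the stalk that holds the head still) at 3485, 2684, 5664, 2657 and 2994 against 1529 to 2595 (median 2438) (-0.62 ± 0.22). Neither overlapped between groups, and both had the smallest exact permutation p that 5 against 7 libraries allow (0.00126) beside a limma adjusted p of 0.499 and 0.546. The study itself had picked these 2 genes from these libraries, together with Atp5o, Atp5c1, Cox4i1 and Cox6b1. Its list of changed genes from these libraries also holds other members, among them 2010107E04Rik and Cox7c, and its list from the knockdown libraries holds members too. No member named here is therefore independent evidence of the direction.

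Of the 5 subunits of the head, Atp5b, Atp5a1 and Atp5c1 stood closer to 0 than Atp5e and Atp5d. Atp5b, the member with the highest counts, stood at 29277, 22539, 61414, 33558 and 41521 in the controls and at 21278 to 40886 (median 27360.1) in the labelled libraries (-0.35 ± 0.27). Atp5a1 stood at 13563, 11004, 20447, 14448 and 12792 against 9299 to 17567 (median 12131) (-0.21 ± 0.21), and Atp5c1, the γ subunit that turns inside the head, at 5572, 4026, 7438, 5192 and 6732 against 3788 to 5319 (median 4193) (-0.39 ± 0.18, limma adjusted p = 0.672). Atp5d stood at 6332, 4882, 12138, 6914 and 10672 against 3323 to 7006 (median 4379) (-0.76 ± 0.25, limma adjusted p = 0.546). The groups overlapped in all 4. Atp5o, which fixes the stalk to the top of the head, stood at 4254, 2894, 8372, 4298 and 6467 against 2616 to 4279.5 (median 3053) (-0.60 ± 0.24), also with overlap. Its symbol covers a second, read-through locus in the annotation, so its reads may be shared. Atp5f1, also of the stalk, had a log2 fold change of 0.04, the only tested subunit of ATP synthase above 0.

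In complex III, Uqcr10 stood at 3074, 2187, 5083, 3198 and 5446 in the controls and at 1398 to 2307 (median 1757) in the labelled libraries (-0.95 ± 0.23, limma adjusted p = 0.499, DESeq2 adjusted p = 0.0117), and only control 9904 fell inside the labelled range. The 5 small subunits had a median of -0.95 and the 4 core subunits one of -0.29. Uqcrc2 stood at 2473, 1751, 2534, 2561 and 1707 against 1811 to 2319 (median 2097) (-0.05 ± 0.17), with labelled values inside the control range. Uqcrc1 stood at 9138, 5993, 24678, 11302 and 17916 against 6851 to 14146 (median 9541) (-0.38 ± 0.31), Cyc1 at 6024, 4127, 15308, 7627 and 11998 against 5567 to 9305 (median 6492) (-0.28 ± 0.28) and Uqcrfs1 at 3507, 3359.7, 3093, 3196 and 2539.6 against 2071 to 3406 (median 2473) (-0.30 ± 0.17). None of the core subunits had an unadjusted p under 0.05. Cycs, which is as short as many small subunits, stood at 3929, 3592, 2962, 2856 and 3133 against 2144 to 3549 (median 3250.3) (-0.15 ± 0.18).

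In complex IV, Cox6b1 stood at 6030.04, 4032, 9479.8, 5788 and 8801 in the controls and at 3029 to 4706 (median 3502) in the labelled libraries (-0.80 ± 0.22, limma adjusted p = 0.499), and Cox4i1 at 9837, 5522, 23927, 11158 and 18189.7 against 5552 to 10971 (median 7316) (-0.66 ± 0.31). Both overlapped, and for Cox4i1 only the controls 9905, 9925 and 9926 were above all labelled libraries. Of 14 tested subunits 13 were below 0 (median -0.80), against 42.6% of all genes, and the remaining subunit stood at 0.84. DESeq2 called 7 of the 14, against 0.667% of all genes called lower.

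These differences leaned on a few libraries. DESeq2's 19 calls became 0 without control 9905, without control 9926 or without the labelled library 9923, and 1, 4 and 8 without the labelled libraries 9914, 9915 and 9918. Left without both 9905 and 9926, a choice made after seeing the data, limma's median of the members was -0.42 and DESeq2 called 0. These 2 controls had the least Malat1, an RNA kept in the nucleus (23359 and 32204 normalized counts, against 44897 to 218074 in the other 10 libraries), and the highest median level of the members (1.08 and 0.77 on the centred log2 scale, against -0.54 to 0.32). The microglial markers summed to 1319 to 3678 in the controls and to 587 to 1599.9 in the labelled libraries, 4 of 5 of them below 0 and 0 called. The part of these measures in the result was not tested.

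In the knockdown experiment most members had higher values in the libraries labelled Ftl1 KD, and 5 of the 6 that passed the test were large subunits. The filter on counts left 12 of 13 large subunits to be tested, but only 15 of 30 small ones. Of the 48 members, 29 passed the filter, and 27 of these had a log2 fold change above 0 (49.5% of all genes tested did), with a median of 0.53 against -0.01 over all genes tested. Of them 6 passed the test as higher (20.7%), against 10.5% of all 1460 genes tested, and 0 passed as lower, against 13.7%. The 6 were Atp5b, Atp5f1, Uqcrc2, Atp5o, Atp5a1 and Usmg5, and 5 of them belong to ATP synthase. DESeq2 called the same 6 (11% of all genes were called higher) and edgeR these and the small subunits Atp5j and Cox6b1 (13.2%). In 7 members (24.1%) all labelled libraries lay above all controls, against 11.8% of all genes, and in 0 all lay below, against 11.9%. The filter favours genes that are high in 1 group: 6 of the 29, Atp5f1, Usmg5, Atp5j, Atpif1, Uqcrh and Cox5b, had a control mean under 10 and passed only through the labelled libraries, so these counts are no support by themselves.

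**Figure D2:**
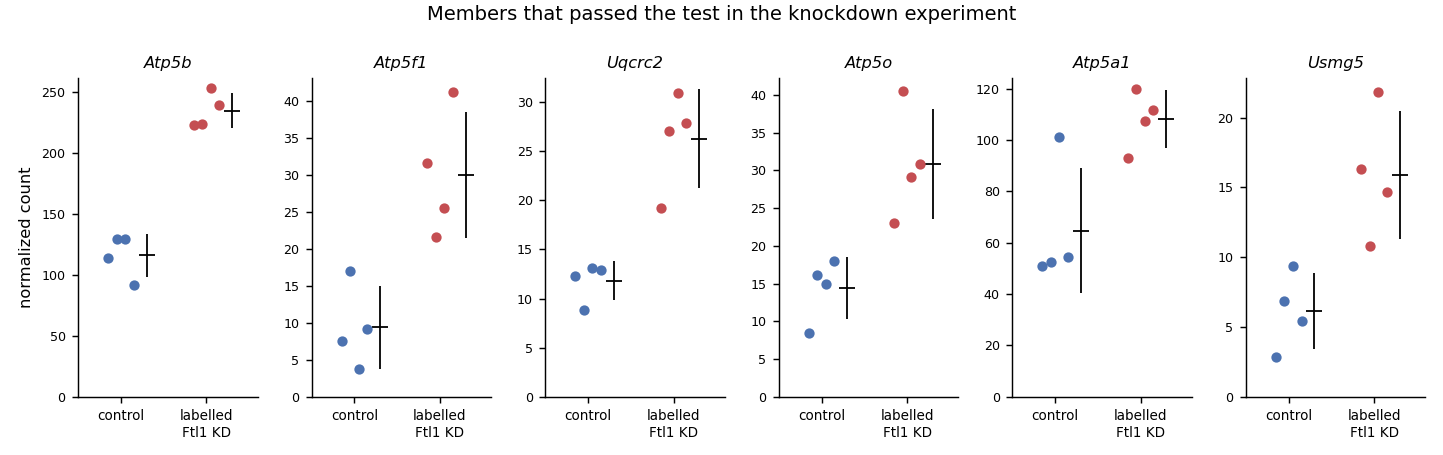
Normalized counts of the 6 members that passed the test in the knockdown experiment, with 4 controls in blue, 4 libraries labelled Ftl1 KD in red, and the mean and SD in black. The groups are apart in every panel except Atp5a1, where control replicate 3 (101) lies among the labelled libraries.

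Atp5b (chr10:128083273-128090391, 1514 reads over the 8 libraries) had the smallest p of the members. It stood at 114, 129, 129 and 92 normalized counts in the controls (replicates 1, 2, 3 and 5) and at 223, 224, 253 and 239 in the labelled libraries (replicates 1, 3, 4 and 5). The lowest labelled library was well above the highest control, with a log2 fold change of 1.02 ± 0.20 (limma adjusted p = 5.41e-04). Atp5a1, with which it forms the catalytic ring of the head, stood at 51, 52.4, 101 and 54.3 against 93, 119.95, 107 and 112 and rose by 0.79 ± 0.24 (adjusted p = 0.0158). Control replicate 3 was as high as the labelled libraries, and the other 3 controls were alike.

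Of the 4 subunits of the stalk, 2 passed, Atp5f1 and Atp5o, where 10.5% of all genes tested passed as higher. Atp5f1 and Atp5j had control means under 10, so they were tested only through their labelled values. Atp5f1 (subunit b, the long helix of the stalk, chr3:105942698-105960099) stood at 7.55, 16.9, 3.74 and 9.20 in the controls and at 31.6, 21.6, 25.5 and 41.1 in the labelled libraries, with no overlap (1.70 ± 0.37, adjusted p = 0.00174). Atp5o (chr16:91925214-91931687) stood at 8.49, 16.1, 15 and 18 against 23, 40.6, 29.1 and 30.9, also apart (1.07 ± 0.31, adjusted p = 0.0142). Both rest on few reads, 173 and 206 over the 8 libraries. Atp5j stood at 7.55, 4.03, 7.49 and 9.20 against 16.3, 12.6, 12.8 and 19.1 without overlap, but missed the threshold (1.03 ± 0.43, adjusted p = 0.0756), as did Atp5c1 with 25.5, 24.2, 33.7 and 23.8 against 39.3, 35.2, 38.3 and 42.6 (0.53 ± 0.26, adjusted p = 0.133). The exact permutation p of each gene whose groups were apart was 0.0286, the smallest that 4 against 4 libraries allow.

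Usmg5 (chr19:47083464-47090647) was the only small subunit to pass, and with a control mean under 10 it was tested only through its labelled values. It stood at 2.83, 6.86, 9.36 and 5.43 in the controls and at 16.3, 10.8, 21.9 and 14.7 in the labelled libraries, apart but on 89 reads in all (1.30 ± 0.47, adjusted p = 0.0429). Its neighbours in the membrane, Atp5k, Atp5l, Atp5j2 and 2010107E04Rik, were under the filter, and their control and labelled ranges overlapped. Atpif1 stood at 3.78, 11.3, 15 and 6.27 against 29.7, 9.02, 21.9 and 11.8 (0.93 ± 0.44, adjusted p = 0.123), with overlap and a control mean under 10 as well.

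In complex III, Uqcrc2 (chr7:120635176-120659524) rose from 12.3, 8.87, 13.1 and 13 in the controls to 19.2, 27.1, 31 and 27.9 in the labelled libraries (1.09 ± 0.31, adjusted p = 0.0132), with the groups apart. Uqcrc1 stood at 35.9, 43.2, 50.6 and 33 against 71, 56.8, 47.4 and 52.9 (0.48 ± 0.25, adjusted p = 0.147), and Uqcrfs1 at 11.3, 19.4, 20.6 and 4.60 against 20.1, 21.6, 25.5 and 25 (0.86 ± 0.37, adjusted p = 0.0862). Cyc1 stood at 31.1, 31.9, 33.7 and 36.4 against 31.6, 30.7, 47.4 and 48.5 (0.21 ± 0.26), and the groups of these 3 overlapped. Uqcrb was under the filter, but its labelled libraries (7.67 to 11.8) lay above the controls (0 to 3.63), and it is named after its values were seen.

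Of the 17 subunits of complex IV, 8 were tested. All 8 had a log2 fold change above 0 (median 0.41), against 49.5% of all genes tested, and none passed. Among them, Cox5b passed the filter only through the labelled libraries, so the count is partly set by the filter. Cox6b1 stood at 6.61, 27.4, 33.7 and 16.3 in the controls and at 43.1, 41.5, 32.8 and 25 in the labelled libraries (0.92 ± 0.36, adjusted p = 0.0624). Cox4i1 stood at 35.9, 51.2, 58 and 29.3 against 79.6, 60.4, 58.3 and 57.3 (0.58 ± 0.25, adjusted p = 0.0923). In both the groups overlapped by 1 or more libraries. The 2 members with values below 0 were Atp5g2 (-0.24) and Atp5h (-0.19), and neither passed.

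Single libraries decided 3 of these calls. Usmg5 was no longer called without control replicate 1 or 5 or any of the labelled replicates 1, 3, 4 and 5 (without 4 it was under the filter), Atp5o without control replicate 1 or labelled replicate 3, and Atp5a1 without labelled replicate 3. Without control replicate 3, 9 members passed, the others being Cox4i1, Cox6b1 and Uqcrfs1. The 2 groups also differed in make-up: the members took 0.458% to 0.717% of all reads in the controls and 1.24% to 1.29% in the labelled libraries, while Rn45s took 31.9% to 55.3% and 30.3% to 34.5%. With Rn45s left out, the members' share was 0.905% to 1.52% against 1.78% to 1.95%, still apart. All 4 RNAs kept in the nucleus fell (their sum was 611 to 1221 in the controls and 209 to 314 in the labelled libraries), the oligodendrocyte markers summed to 31.4 to 64.1 against 7.35 to 14.4, and the astrocyte markers to 15 to 36.8 against 37 to 55.8. Of each of these lists of 5 only 1 gene passed the filter, and it was called (lower and higher); none of the 5 was at 0 in every library, whereas the endothelial markers Flt1 and Pecam1 were. The neuronal markers summed to 142 to 208 against 164 to 189.9. Of these 8 genes 4 passed the filter, and 1 was called higher and 1 lower. The part of these measures in the result was not tested.

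Set by the size of their proteins, the subunits split differently in the 3 experiments. A subunit was called small under 150 residues, which gave 30 small and 13 large ones. In aging the median log2 fold change was 0.37 over the 25 small subunits tested and -0.04 over the 12 large ones, a difference of 0.41. Over all genes tested, those with short proteins also stood above those with long ones, by 0.23 (824 against 12201 genes). With the limit at 120 residues the difference was 0.20 for the subunits and 0.30 for all genes, so which was larger depended on the limit. In overexpression the small subunits had a median of -0.83 (28 tested) and the large ones -0.36 (12 tested), a difference of -0.47, close to the -0.49 between all short and long genes. In knockdown the small subunits were again below the large ones in the median, against the order over all genes. The small subunits had a median of 0.43 (15 tested, 1 called) and the large ones 0.68 (12 tested, 5 called), a difference of -0.25. Of all genes tested, 10.5% were called higher. The small Uqcrh, Usmg5, Cox5b and Atp5j and the large Atp5f1 passed the filter only through the labelled libraries. These medians and counts are therefore partly set by the filter. Over all genes the short ones stood 0.46 above the long ones. The mean level of the small subunits minus that of the large ones overlapped between the knockdown groups. It was 0.05 to 0.16 in the controls and -0.23 to 0.10 in the labelled libraries. Fold changes of low genes are understated, and this was not allowed for in the contrast. At 250 residues or more the 8 members had a median of 0.82 against -0.15 over 1107 genes of that length. The members below 80 residues in the same table had a median of 0.31 (4 members) against 0.67 over 20 genes.

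**Figure D3:**
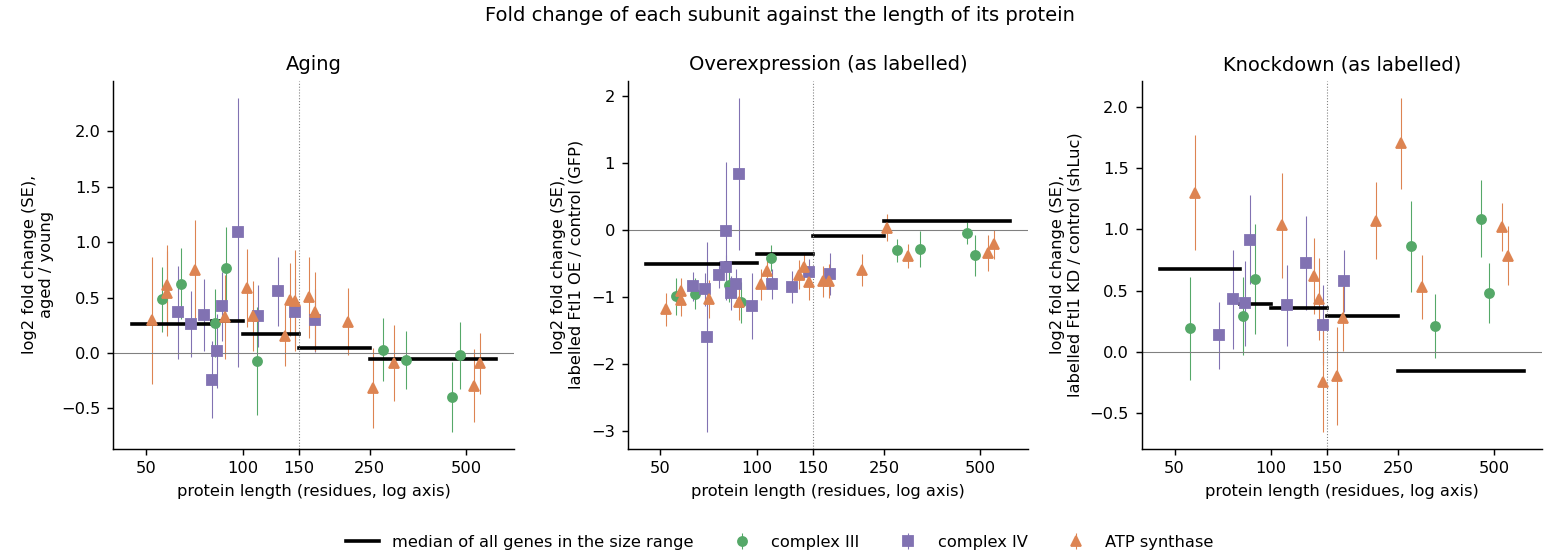
Log2 fold change with its standard error of each tested subunit against the length of its protein in residues (log axis), one panel per experiment, with complex III, complex IV and ATP synthase marked and the median of all genes in each size range as a black line. The members slope the same way as the black line in aging and overexpression, and those of 250 residues or more lie above it in knockdown.

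Library by library, the small subunits that passed the filter were apart in aging. Their mean level, each gene centred on its mean over the libraries, was -0.25 to -0.11 in the young libraries against 0.11 and 0.37 in the aged ones, while that of the large subunits was -0.39 to 0.21 against -0.11 and 0.13. In overexpression both overlapped: the small subunits lay from -0.40 to 0.99 in the controls and from -0.68 to 0.08 in the labelled libraries, and the large ones from -0.34 to 0.76 and from -0.39 to 0.23. In knockdown both were apart, the small ones at -0.48 to 0.05 against 0.11 to 0.44 and the large ones at -0.57 to -0.11 against 0.32 to 0.39. The filter let in Uqcrh, Usmg5, Cox5b, Atp5j and Atp5f1 through their labelled values, so the knockdown scores are partly set by it. Over all 30 small and 13 large subunits without the filter, an alternative added after seeing the data, the knockdown groups were still apart (-0.47 to 0.04 against 0.12 to 0.39 and -0.53 to -0.10 against 0.30 to 0.36). In aging the small subunits then overlapped (-0.30 to 0.08 against 0.0012 and 0.25). With the filter, the 4 labelled knockdown libraries were closer to each other in the large subunits (SD 0.03) than in the small ones (SD 0.14).

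**Figure D4:**
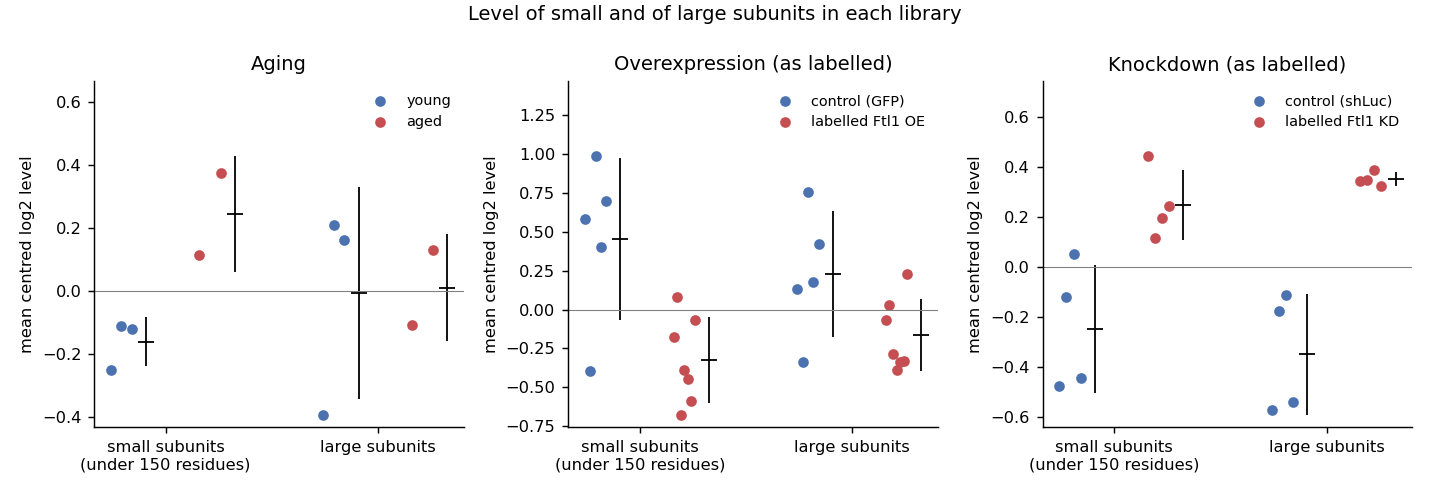
Mean centred log2 level of the small and of the large subunits that passed the filter in each library, with the controls or young libraries in blue, the others in red, and the mean and SD in black. The groups are apart for small subunits in aging and for both kinds in knockdown, and overlap for both in overexpression.

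Several subunits have more than 1 gene, with 1 isoform usual in most tissues and others in muscle, heart, lung or testis. Most of the latter were at or near 0. Cox8c had 0 reads in all 25 libraries, which allows up to 0.0686, 0.0182 and 2.61 reads per 1e6 in the aging, overexpression and knockdown tables (3 reads over a table's total, for counting error only). Cox4i2, the isoform found mostly in lung, had 0 reads in aging and knockdown and at most 36.9 normalized counts in overexpression, where Cox4i1 stood at 5522 or more. Cox7b2 had 4, 20 and 0 reads in the 3 tables. Per kilobase of transcript, Cox6a1 made up 97.0% to 99.6% of the Cox6a pair in the young libraries and 96.0% to 98.4% in the overexpression controls, the rest being the muscle isoform Cox6a2, which stood at 33.2, 4.24 and 18.6 normalized counts in the young libraries. Cox8b reached 243 in control 9901 but was at 0 in control 9904, and Cox6b2 141 in control 9901 and 0 in control 9926, so that these isoforms were uneven among the controls themselves.

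Of 18 isoform ratios compared between groups, 1 was apart: Cox7a2 to Cox7a2l in overexpression. Cox7a2 is the complex IV subunit, and Cox7a2l is its relative, counted here apart from the subunits. Cox7a2 stood at 3175, 2109, 6279, 2982 and 5731 normalized counts in the controls and at 1581 to 2473 (median 1881) in the labelled libraries, Cox7a2l at 1886, 1267, 3809, 1415 and 2376 against 1184 to 1816 (median 1577). The log2 ratio of the first to the second was 0.72 to 1.27 in the controls and 0.05 to 0.52 in the labelled libraries, a difference of -0.57. It was singled out of the 18 for this, so no p-value is given for it. The ratio in aging was -0.81 to -0.58 in the young libraries against -0.90 and -0.63 in the aged ones, and in knockdown it spread from -1.08 to 1.71 in the controls alone, on 168 and 136 reads over the 8 libraries, and the groups overlapped in both tables.

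**Figure D5:**
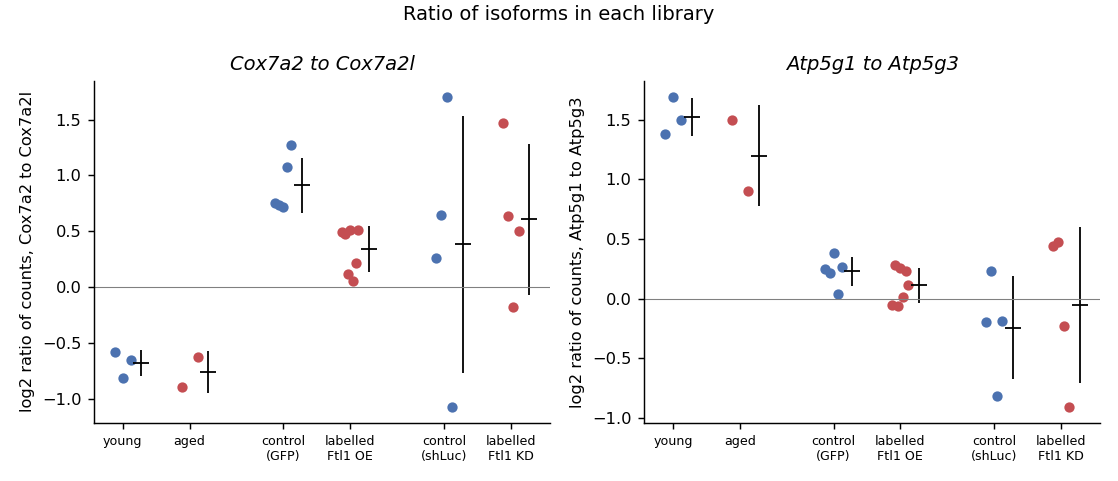
Log2 ratio of normalized counts of Cox7a2 to Cox7a2l and of Atp5g1 to Atp5g3 in each library of the 3 experiments, with the mean and SD in black. The Cox7a2 to Cox7a2l ratio of every library labelled Ftl1 OE (0.52 at most) lies below that of every control (0.72 at least), and the other comparisons overlap.

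The c ring is made from 3 genes, Atp5g1, Atp5g2 and Atp5g3, whose mature proteins are identical. In the young libraries Atp5g1 and Atp5g3 were the leading pair, and which came first depended on the length used. By coding length Atp5g1 made up 64.2% to 69.9% of the 3 there, while by transcript length Atp5g3 led with 42.9% to 49.0%. By transcript length Atp5g3 also led in the overexpression and knockdown controls (median shares 57.4% and 50.9%), followed by Atp5g2 (26.0% and 35.1%) and Atp5g1 (17.8% and 11.5%). By coding length Atp5g1 led in the overexpression controls (45.4%) and Atp5g3 in the knockdown controls (36.8%). The transcript length of Atp5g1 is uncertain in the annotation. The log2 ratio of Atp5g1 to Atp5g3 counts was 1.38 to 1.69 in the young libraries against 0.90 and 1.5 in the aged ones, which overlapped (difference -0.32). It was 0.04 to 0.38 in the overexpression controls and -0.06 to 0.28 in the labelled libraries, and the groups overlapped there and in knockdown too. Atp5g2 stood at 203, 191 and 124 in the young libraries and at 201 and 275 in the aged ones, and at 2283, 1719, 5284, 2669 and 4112 against 1355 to 2544 (median 1683) in overexpression (-0.78 ± 0.26), where only the lower controls reached into the labelled range.

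Other gene groups were set beside the members as counts and medians, and the differences between groups were not tested. Of 32 assembly factors of the same complexes, 31 were tested in aging (19 above 0, median 0.21, against 0.29 for the members) and in overexpression (20 below 0, median -0.18, against -0.67 for the members), with 0 called by limma in either, and none passed the filter in knockdown. The 8 regulators of nuclear genes for mitochondria, among them Nrf1, Gabpa and Yy1, had a median of 0.15 in aging and 0.45 in overexpression, with 7 of 8 above 0 in the latter and 0 called, and none passed the filter in knockdown. Complex I subunits, the first step of the same chain, had medians of 0.25, -0.66 and 0.36 in the 3 experiments, near those of the members (0.29, -0.67 and 0.53), and 1 of 16 passed as higher in knockdown (6.25%, Ndufa10). The cytosolic ribosomal proteins, which are also short and encoded by abundant RNAs, had medians of 0.61, -0.72 and 0.46. In overexpression 81.6% of them and 73.0% of the complex I subunits were lower at an unadjusted limma p under 0.05. So were 66.7% of the members, against 3.66% of all genes. In knockdown 9.09% of the 44 ribosomal proteins tested passed as higher, against 10.5% of all genes tested and 20.7% of the members. The 6.25% of complex I was also under the share of all genes. The members' share includes Atp5f1 and Usmg5, which passed the filter only through the labelled libraries.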

How the data were processed

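Nuclear RNA was sequenced from NeuN-positive nuclei of the mouse hippocampus, and 25 libraries in 3 tables were used. The authors deposited a normalized count for each gene and library, made (per the submitters' processing notes) with STAR, RSEM and DESeq2 on mm10, with each table scaled separately. The signal values the authors deposited are thus gene counts divided by a size factor per library. They were divided back to whole reads (within 0.01 of a whole number) to recover the depth. The authors' own fold changes and p-values in the same tables were not used, and 0 columns belonged to other samples.

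Values were taken as log2(normalized count + 1), so that the fold changes of low genes are understated. Genes with a mean of at least 10 over a table were fitted with limma 3.58.1 (trend, R 4.3.3) and adjusted by Benjamini-Hochberg over all genes tested. A call needed an adjusted p of at most 0.05 and, in aging, a log2 fold change of at least 0.5 in size. edgeR 4.0.16 (quasi-likelihood) and DESeq2 1.42.0 on the recovered reads, other pseudocounts, filters and scalings, each library left out and the replicate number as a block were alternatives. Single members were also tested by an exact two-sided permutation test. Scripts were tested on simulated data. Protein lengths were taken from the coding length of a transcript of each gene in the GENCODE annotation of GRCm38. Gene coordinates came from the same annotation, and promoters from RefSeq (GRCm38.p6).

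Members named with values were those that limma called, the 5 with the smallest p in aging and in overexpression, the isoforms, 6 genes named by the study (Atp5o, Atp5c1, Atp5j, Atpif1, Cox4i1 and Cox6b1) and the core subunits. Other members given with values, such as Cycs, Atp5d and Atp5h, fall outside these classes. The members, lists and alternatives were chosen with earlier results of these data known. Samples with the same number did not deviate together (r from -0.05 to 0.02 in aging and knockdown), so the numbers were not taken as pairs. No 2 libraries agreed within sampling noise.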

Additional observations from a re-analysis of the deposited data

Results flagged for a closer look

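Of 86 groups of 4 to 10 libraries, 3 held a library far from the others, and chance alone flags about 1 in 20. In overexpression, Cyc1 stood at 9305 normalized counts in the labelled library 9932, against 6936 in the next highest of its group. In knockdown, Atp5a1 stood at 101 in control replicate 3, against 54.3 in the next control, and Cox4i1 at 79.6 in the labelled replicate 1, against 60.4.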

How the results depend on the processing

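No member was called in aging under any of the 15 alternatives. The median of the aging members stayed above 0, from 0.073 without aged replicate 3 to 0.46 when single libraries were left out. Its difference between small and large subunits was 0.20 with a limit of 120 residues and 0.38 to 0.48 without single libraries. In overexpression limma called 0 members without each library in turn, whereas DESeq2 on the recovered reads called 19, and 17 when fitted on every gene. Without single libraries, chosen after seeing the data, DESeq2 called 0 to 28 members, 0 of them without control 9905, control 9926 or labelled library 9923. It called 1 without 9914, 4 without 9915, 8 without 9918, 17 without 9925, 18 without 9895 or 9910, 21 without 9901, 22 without 9932 and 28 without 9904. The median stayed below 0 (-0.92 to -0.57 without single libraries, and -0.42 with limma and -0.41 with DESeq2 without controls 9905 and 9926). Without these 2 controls Uqcrc1 turned to 0.14 with limma and with DESeq2, Cyc1 to 0.21 and 0.19, and Atp5b to 0.012 with DESeq2. Uqcrc2 turned to 0.0076 without control 9905 and 0.011 without control 9925, in a range of -0.135 to 0.011 without single libraries.

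In knockdown, 6 calls became 2 of 3 tested members with a filter at 50 (median 0.79, no small subunit left and so no size difference), 3 without a filter (Atp5b, Atp5f1 and Uqcrb), and 3 to 9 without single libraries. With the replicate block, where the numbers were not shown to pair the samples, 3 were called (Atp5b, Atp5f1 and Atp5o), and in aging the block gave 0 calls and a median of 0.19. The overexpression numbers are shared by no samples of the 2 groups. The size difference ranged from -0.37 to -0.10 without single libraries, and the aging difference of the log2 ratio of Atp5g1 to Atp5g3 from -0.62 to -0.026. Causes were not tested. Over single members, 810 of 909 values kept direction and side of the threshold, 15 lost the call, 77 gained it and 7 reversed. Without the filter, chosen after seeing the data, the difference in level of the small subunits in aging moved from 0.41 to 0.21. Knockdown depth limits every value there, and most for the members under the filter.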
